A study of Rattus norvegicus with 2 samples.

Results

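Probes that flank long gaps in the probe coverage of the rat genome were examined for their 8-oxoG signal in normal kidney. The unflagged probes of chromosomes 1 to 20 were sorted by their start on the rat assembly rn4, and a gap was taken wherever the next probe starts more than 100 kb after the previous one. The last probe before and the first probe after each gap are the flanking probes. There were 515 such gaps with 988 flanking probes, out of 219941 probes on these chromosomes, and 42 of the flanking probes lie between 2 gaps and are shared by them. The flanking probes fall into 514 of the 2570 fragments of 1 Mb that hold a probe, and the 34575 other probes of these 514 fragments were used for comparison. For 3 flanking probes the fragment held no other non-flanking probe, so that 985 were compared.

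The data come from the kidneys of 2 untreated male rats of 5 weeks, given as strain Wister rat, with 1 array for each rat and 1 group in all. DNA precipitated with the 8-oxoG antibody N45.1 was labelled with Cy5 and input DNA without precipitation with Cy3, at 800 ng each, and both were hybridised to an Agilent Rat Genome CGH 244A array. The group has no control group beside it and the dyes were not swapped, so that a difference between dyes and one between IP and input cannot be told apart. On replicate 1 the median processed intensity of the spots was 90.6 in the IP channel and 89.3 in the input channel. On replicate 2 it was 70.4 in the IP and 70.2 in the input channel.

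8-Oxoguanine is a guanine base oxidised by reactive oxygen species. Left in place, it can give rise to G to T mutations, and it is removed mainly by base excision repair started by the glycosylase OGG1. A tiling array reads it only where a probe could be placed, and stretches of repeats, of duplicated sequence or of unfinished assembly are typical places where array designs leave gaps.

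The gaps are long compared with the usual distance between probes. Their lengths ranged from 100165 to 849055 bases, with quartiles of 126 and 241 kb and a median of 161 kb, whereas neighbouring probes start 7.85 kb apart in the median. Together the gaps span 105 Mb, or 4.12% of the length between the first and the last probe of the chromosomes. Of the 515 gaps, 236 (45.8%) had another gap within 1 Mb. The first 5 Mb of the chromosomes held 32 gaps (6.21%) and the last 5 Mb held 18 (3.50%), where each of these ends makes up 3.91% of the length. Chromosome 1 had the most gaps (76), followed by chromosome 2 (54) and chromosome 15 (38). Relative to length, gaps covered most of chromosome 15 (7.45%) and chromosome 12 (6.69%) and least of chromosome 11 (1.25%).

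The 8-oxoG level of a probe is log2(IP/input) after each array was centred on its own median, so that 0 marks a typical probe and does not mean that 8-oxoG is absent. The mean level of the 988 flanking probes was 0.12 on replicate 1 and 0.04 on replicate 2. Set against the mean of the other probes of the same fragment, the flanking probes were higher by 0.08 on replicate 1 and by 0.06 on replicate 2, with a mean difference of 0.07 ± 0.01 (SD, n = 2). Both arrays gave a positive difference, and in the exact sign-flip permutation test over the arrays (two-sided) p was 0.5, the smallest value that 2 arrays allow. With normexp background correction the difference fell to 0.04 and 0.0073 on the 2 arrays and the mean level of the flanking probes turned to -0.02. With the median of the other probes in place of their mean, the difference was 0.06 on replicate 1 and -0.0019 on replicate 2. The flanking probes themselves were still averaged by their mean there. Median levels were 0.16 and 0.08 for the flanking and -0.0021 and 0.0055 for the other probes on replicates 1 and 2. Median deviations from the fragment mean were 0.10 and 0.09 against 0.02 and 0.06.

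No single flanking probe passed the test against 0 or against its own fragment. In the limma fit of the level over all 219941 probes, 0 flanking probes had an adjusted p under 0.05 in either direction, and the share over all probes was 0.0% in both. At an unadjusted p under 0.05, 85 flanking probes (8.60%) were above 0 against 7.65% of all probes, and 50 (5.06%) were below 0 against 7.28%. In the limma fit of each probe against the other probes of its fragment, again 0 flanking probes passed, against 0.0% of all probes, and their smallest adjusted p was 0.338. This fit kept other flanking probes in the comparison and so tested 987 flanking probes. The means of both flanks of a gap and of both probes that bound an interval, given below, were computed in the same way. At an unadjusted p under 0.05 there were 73 flanking probes (7.40%) above their fragment against 7.3% of all probes, and 55 (5.57%) below it against 6.27%. The shares above were near those of all probes, while those below were smaller, most clearly in the test against 0. With normexp background correction, 4.25% were above 0 at this unadjusted p, against 2.32% of all probes, and 5.47% below, against 4.75%. Against the fragment it was 4.66% above, against 3.13%, and 6.99% below, against 6.98%. With the trend on input brightness removed, 8.70% were above 0, against 5.82%, and 4.45% below, against 6.65%.

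The arrays resembled each other more at the flanking probes than at the other probes of the fragments. Pearson's r between the 2 arrays was 0.438 over the 988 flanking probes and 0.342 over the 34575 other probes. These are correlations over probes of the same 2 arrays and are given as a description. Flanking probes lay on the same side of their fragment on both arrays in 67.5% of cases, and the other probes in 62.2%. Of the flanking probes, 378 (38.3%) were above their fragment on both arrays and 288 (29.1%) below it on both, whereas these shares were 33.0% and 29.2% among the other probes. The excess over the other probes therefore lay on the upper side.

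**Figure D1:**
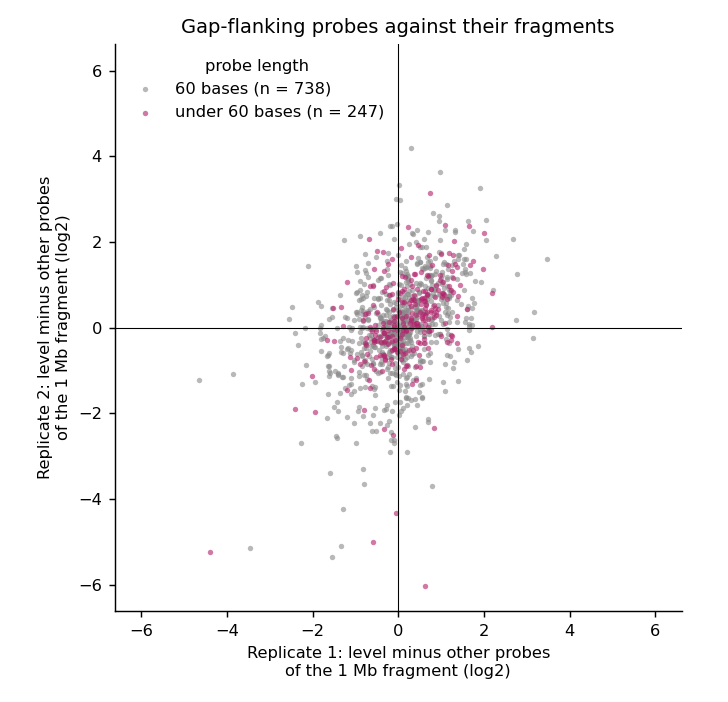
Difference of each gap-flanking probe from the other probes of its 1 Mb fragment (log2) on replicate 1 (horizontal) and replicate 2 (vertical), for 738 probes of 60 bases (grey) and 247 shorter probes (magenta). The points are spread widely around 0 on both axes, while their mean lies at 0.08 on replicate 1 and 0.06 on replicate 2.

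Input DNA was brighter at the flanking probes. Log2 of the input intensity exceeded that of the other probes of the fragment by 0.17 on replicate 1 and 0.15 on replicate 2, a mean of 0.16 ± 0.02 (SD, n = 2; exact sign-flip permutation p = 0.5). For the IP the differences were 0.25 and 0.21. The median input intensity was 112 on replicate 1 and 85.2 on replicate 2 at the flanking probes, and 93.7 and 73.5 at the others. Without the probes between 2 gaps the input difference was 0.10, and with normexp background correction it was also 0.10. With only probes of 60 bases it turned to -0.02. Input values were very similar between the rats, with r = 0.988 over the 988 flanking probes. IP and input were both well above background on the 2 arrays for 80.4% of the flanking probes and 79.0% of the others, and none of the flanking spots was saturated.

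Part of the flanking probes gave very bright input. An input intensity over 16 times the median of the array, on both arrays, was found for 39 flanking probes (3.95%), but only for 0.272% of the other probes of the fragments. The brightest lies on chromosome 14 from 4416957 to 4417003, with input intensities of 20782 and 16944 and levels of -0.40 and -0.42 on replicates 1 and 2. It is one of the probes between 2 gaps, as is the second brightest, on chromosome 16 from 27225356 to 27225415. This second probe had input intensities of 14483 and 10549 and levels of -0.46 and -0.22. Of the 39 bright flanking probes, 23 (59.0%) had a level below 0 on both arrays, and this share was 60.6% among the 94 equally bright other probes.

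The level has the input as its denominator, so that a negative correlation with the input is partly built in. Across the flanking probes r between level and log2 input was -0.180 on replicate 1 and -0.246 on replicate 2, and across the other probes of the fragments it was -0.240 and -0.280. Probes were therefore also compared within 4 classes of input brightness, each holding an equal number of all autosomal probes. In the dimmest class the flanking probes deviated from their fragments by 0.24 and 0.40 on the 2 arrays and the other probes by 0.19 and 0.35. In the brightest class, which held 30.3% of the flanking probes, the deviations were -0.07 and -0.28 for the flanking and -0.28 and -0.45 for the other probes. In each of the 4 classes the flanking probes were above the other probes on both arrays. With the trend of the level on brightness removed, the difference was 0.09 on replicate 1 and 0.08 on replicate 2.

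Flanking probes were often shorter than the usual 60 bases. Of the 988 flanking probes, 247 (25.0%) had fewer than 60 bases, compared with 11.1% of the other probes of the fragments. Probes of 50 bases or fewer made up 8.30% of the flanking probes and 1.08% of the others. The short flanking probes exceeded their fragments by 0.19 on replicate 1 and 0.16 on replicate 2 in level, and by 0.85 and 0.87 in log2 input intensity. The 738 compared flanking probes of 60 bases exceeded them by only 0.04 and 0.03 in level, and their input lay below the fragment by -0.05 and -0.09. Short probes away from gaps also deviated from their fragments. The 3850 other probes under 60 bases deviated by 0.08 and 0.09 in level, and the 375 of 50 bases or fewer by 0.30 and 0.39. The 82 flanking probes of 50 bases or fewer deviated by 0.38 and 0.32, above these on replicate 1 and below them on replicate 2. These deviations kept other flanking probes in the comparison. On that basis the 247 short flanking probes deviated by 0.17 and 0.16. When probes of 60 bases alone were kept on both sides of the comparison, the level difference was 0.05 on replicate 1 and 0.06 on replicate 2, and the input difference changed sign to -0.0013 and -0.04.

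The 40 probes between 2 gaps that could be compared had bright input. Their log2 input intensity exceeded that of the fragment by 1.49 on replicate 1 and 1.56 on replicate 2, and their level by 0.16 and 0.14. For the 945 probes that flank 1 gap, the differences were 0.12 and 0.09 in input and 0.07 and 0.06 in level.

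The length of the gap had no steady relation to the level. Flanking probes exceeded their fragments by 0.09 and 0.08 at gaps over 100 to 150 kb (223 gaps), by 0.03 and 0.05 at gaps over 150 to 250 kb (172 gaps), and by 0.11 and 0.04 at gaps over 250 kb (120 gaps). The input difference was larger for longer gaps, with 0.09 and 0.06 in the shortest class, 0.27 and 0.25 in the next and 0.33 on both arrays in the longest. Just inside the threshold, at 61 gaps over 100 to 110 kb, the level difference was 0.18 on replicate 1 and 0.09 on replicate 2. Just outside it, at 63 gaps over 90 to 100 kb, it was 0.19 and 0.32. The threshold therefore does not mark the start of the difference, and with a threshold of 50 kb the mean difference was 0.11.

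All intervals between neighbouring probes were then ordered by length, and each bounding probe was set against the other probes of its fragment. The deviation was -0.02 and -0.0058 on the 2 arrays for intervals up to 5 kb, 0.02 and 0.0088 for 10 to 20 kb, and 0.03 and 0.02 for 20 to 50 kb. It reached 0.09 and 0.14 for 50 to 100 kb (821 intervals) and was 0.07 and 0.06 for gaps over 100 kb. The share of bounding probes under 60 bases did not follow the same order, being 10.8% for 5 to 10 kb, 5.09% for 20 to 50 kb, 25.8% for 50 to 100 kb and 25.6% over 100 kb. Where both bounding probes had 60 bases, the deviation was 0.08 and 0.06 for 50 to 100 kb and 0.03 on both arrays for gaps over 100 kb. Input was brighter at gaps over 100 kb, by 0.18 and 0.15, but not at intervals of 50 to 100 kb, where it deviated by -0.0050 and -0.03. Where both bounding probes had 60 bases, input lay below the fragment in both classes, by -0.05 and -0.08 over 100 kb and by -0.20 and -0.23 at 50 to 100 kb.

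**Figure D2:**
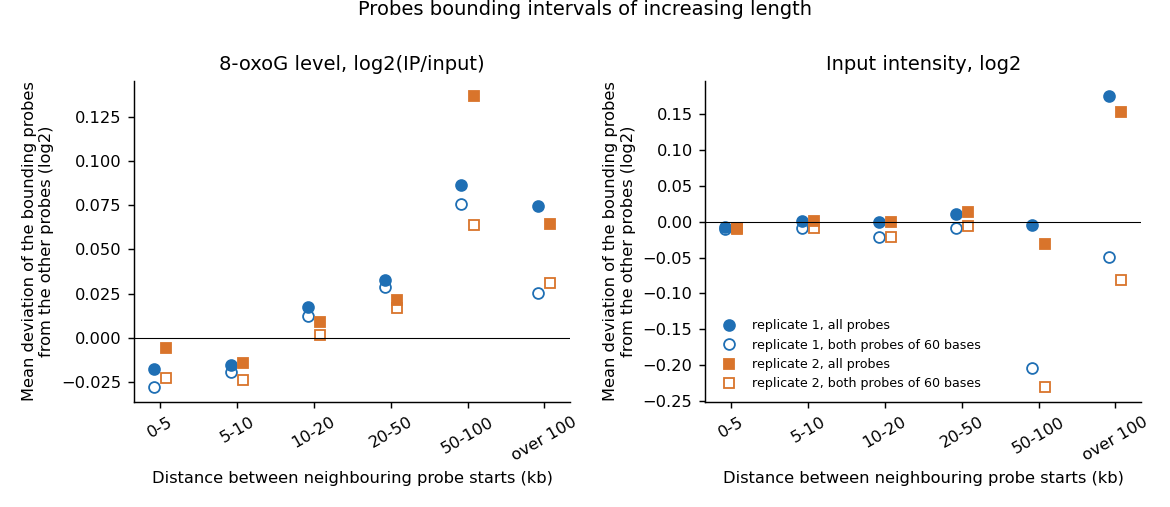
Mean deviation of the 2 probes that bound an interval from the other probes of their 1 Mb fragments (log2), by length of the interval in kb, for the 8-oxoG level (left) and the input intensity (right). Circles are replicate 1 and squares replicate 2, filled for all intervals and open for intervals with 60 bases at both bounding probes. The level is highest at 50 to 100 kb, with 0.09 and 0.14, and the input over all intervals is brightest over 100 kb, with 0.18 and 0.15, but below 0 there with 60 bases at both probes.

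The difference was larger after the gap than before it. Probes just before a gap exceeded their fragments by 0.05 on replicate 1 and 0.03 on replicate 2, and probes just after a gap by 0.11 and 0.10. This contrast of sides was not tested. Away from the gap, mean differences by probe order from 2 to 10 varied between -0.09 and 0.15 on replicate 1 and between -0.07 and 0.07 on replicate 2. The values of the flanking probes on replicate 1 thus lie within the range of probes farther away, whereas on replicate 2 the first probe after the gap, at 0.10, was above the range. Bright input was likewise seen at other orders. It was 0.23 and 0.22 at the last probe before the gap, and 0.27 and 0.26 at the third probe before it.

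**Figure D3:**
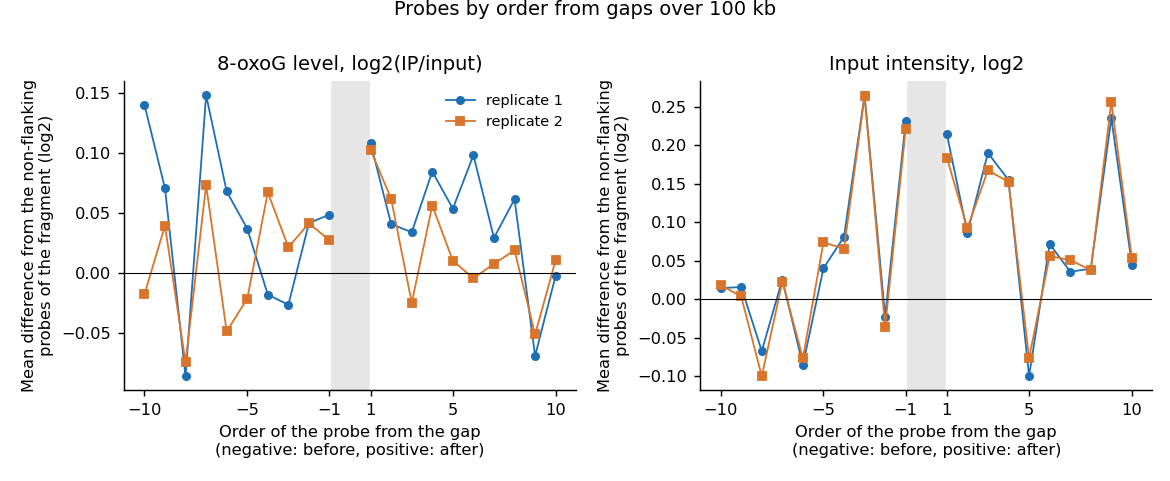
Mean difference from the non-flanking probes of the fragment (log2) by order of the probe from the gap, negative before and positive after it, for the 8-oxoG level (left) and the input intensity (right) on replicate 1 (circles) and replicate 2 (squares). The grey band stands for the gap. Levels at the first probe after the gap were 0.11 and 0.10. At orders 2 to 10 the values ran from -0.09 to 0.15 on replicate 1 and from -0.07 to 0.07 on replicate 2.

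The difference varied between chromosomes. It was above 0 on both arrays for 10 of the 20 chromosomes, below 0 on both for 4 and of opposite sign for 6. The largest was found on chromosome 14, with 26 gaps, at 0.37 on replicate 1 and 0.31 on replicate 2. Its 50 compared probes include the flanks of the gaps from 51204647 and from 3907312, described below. Input there was in part not well above background, so that the size and rank of this difference were not fully measured. Chromosome 12 (0.19 and 0.29) and chromosome 11 (0.21 and 0.22) were also above 0 on both arrays. Among the chromosomes with most gaps, chromosome 1 had 0.09 and 0.07, chromosome 2 had 0.0089 and 0.24, and chromosome 15 had 0.13 and -0.07. Chromosome 5 was lowest on replicate 1 (-0.13 and -0.04), and chromosome 20 differed most between the rats, with 0.18 and -0.40. Leaving out 1 chromosome at a time gave mean differences from 0.05, without chromosome 14, to 0.08, without chromosome 5. Input was brighter at the flanking probes on both arrays for 13 of the 20 chromosomes.

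**Figure D4:**
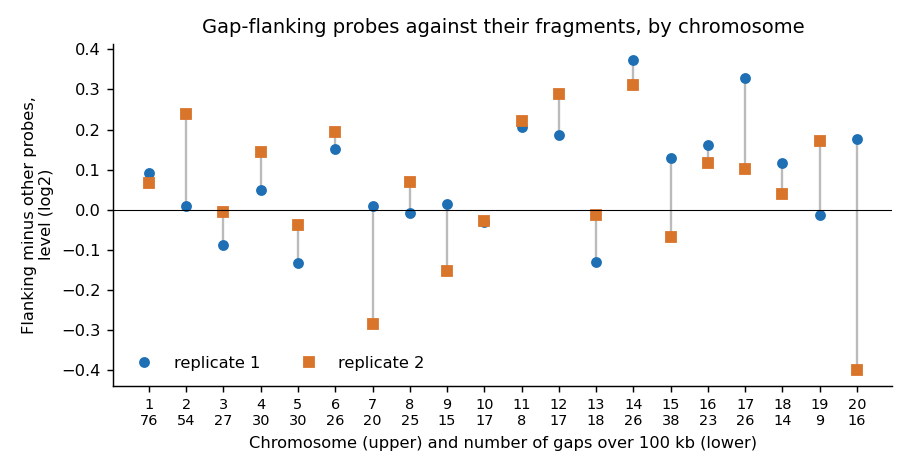
Difference in level between gap-flanking probes and the other probes of the same fragments (log2) for each of the 20 chromosomes, with the number of gaps under each chromosome, for replicate 1 (circles) and replicate 2 (squares) joined by a line. Chromosome 14 is highest on replicate 1 and on replicate 2 (0.37 and 0.31), and chromosome 20 has opposite signs (0.18 and -0.40). The mean of chromosome 14 includes strongly deviating flanks with input not well above background.

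On the scale of domains, fragments with flanking probes were set beside all fragments. Of the 514 fragments, 116 (22.6%) were above 0 in limma's test with adjusted p under 0.05, against 22.8% of all 2570 fragments. Below 0 were 105 (20.4%), against 22.4% of all. With normexp background correction fewer fragments were called, with 5 (0.973%) above 0, against 0.195% of all, and 16 (3.11%) below 0, against 2.49%. In the main processing the mean level of the 514 fragments was 0.05 on replicate 1 and -0.04 on replicate 2, compared with 0.04 and -0.06 for the 2056 fragments without a flanking probe. They held fewer probes, with a median of 63 against 85.

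When both flanks of a gap were averaged, 188 of 513 gaps (36.6%) were above their fragments on both arrays, while 130 (25.3%) lay below on each. Over all 219919 intervals between neighbouring probes these shares were 32.6% and 29.0%. In limma's test of this mean, 0 gaps passed in either direction at an adjusted p under 0.05, against 0.0% of all intervals. At an unadjusted p under 0.05, 41 gaps (7.99%) were above against 7.25% of all intervals, and 26 (5.07%) were below against 7.16%. The smallest adjusted p of a gap was 0.221. This changed when only probes well above background on the 2 arrays were kept. Then 1 of 334 gaps was called above (0.299%, against 0.566% of all intervals) and 4 below (1.20%, against 0.727%). The gap above lies on chromosome 14 from 49698223 to 50293329, with 1.22 on replicate 1 and 1.87 on replicate 2. The lowest of the 4 lies on chromosome 5 from 50029982 to 50169985, with -2.09 and -2.89. The others lie on chromosome 2 from 815343 to 930373 (-1.82 and -1.59), where the fragment holds only 8 probes, of which 5 flank gaps, on chromosome 5 from 68507431 to 68783365 (-0.81 and -2.38) and on chromosome 7 from 60982680 to 61129995 (-0.74 and -2.42). These 5 gaps are named here after their values were seen.

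The 3 gaps with the highest computed mean of both flanks, of the same sign on both arrays, had dim input that was in part not well above background, so that the size of their deviations and their places among the highest were not fully measured. The first lies on chromosome 14 from 51204647 to 51315803, where the flanks exceeded their fragments by 2.28 on replicate 1 and 2.21 on replicate 2 (limma adjusted p = 0.221). The input was not well above background on either array at both of its flanks, at 4.80 and 1.85 before and 5.62 and 1.55 after the gap, so that these ratios have no measured denominator. The second, on chromosome 14 from 3907312 to 4014202, had 3.12 and 0.91 (adjusted p = 0.222), and the input after the gap was not well above background on either array. The third, on chromosome 1 from 62976829 to 63081979, had 0.78 and 2.83 (adjusted p = 0.227), and the input before the gap was not well above background on replicate 1. None of these gaps passed the test.

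The 3 lowest gaps had input well above background and a low IP signal at the probe before the gap. On chromosome 8 from 122200502 to 122355527 the flanks lay below their fragments by -2.74 and -3.30 (limma adjusted p = 0.221). The probe before this gap had input intensities of 92.6 and 81.4, while its IP, at 3.86 and 2.12, was not well above background on either array, so that the size of this deviation and its place among the lowest were not measured. The probe after it was also low on both arrays, with levels of -1.40 and -1.55. On chromosome 5 from 50029982 to 50169985 the flanks deviated by -2.04 and -2.93. All 4 intensities of the probe before the gap were well above background, with levels of -3.03 and -4.99. Its input was 248 on replicate 1 but 523 on replicate 2, whereas the median input of the flanking probes was lower on replicate 2 (112 and 85.2). On chromosome 6 from 27592885 to 28154837, a gap of 562 kb, the flanks deviated by -2.85 and -1.73. There the IP of the probe before the gap, at 8.42, was not well above background on replicate 1, so that the size of the deviation on that array and the place of this gap among the lowest were not measured either.

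The 10 longest gaps, of 595 to 849 kb, showed no common direction. Both flanks together were above their fragments on both arrays at 3 of them, below on both at 2 and of opposite signs at 4, and 1 could not be set against its fragment because a flank was the only probe there. Those of opposite signs include the gaps on chromosome 14 from 91558964 and on chromosome 15 from 20361818. Each of these has a flank where neither IP nor input was well above background on either array, so that its sign was not measured. The longest lies on chromosome 16 from 27225356 to 28074411, with a deviation of -0.07 and -0.13. The bright probe described above stands before it and was set against the only other probe of its fragment, which also flanks a gap. Its part of this deviation therefore compares 2 flanking probes. The probe after the gap had input intensities of only 40.3 and 27.2. Among the 10, the largest deviation was found at the gap on chromosome 14 from 49698223 to 50293329, with 1.28 on replicate 1 and 1.80 on replicate 2 (limma adjusted p = 0.222). The probe before this gap was set against only 3 other probes of its fragment, of which 2 also flank gaps. The probe after this gap had levels of 1.97 and 2.50 and its IP and input were well above background on the 2 arrays. It lies less than 1 Mb before the gap from 51204647 given above.

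Levels on both sides of a gap were set beside those on both sides of all intervals. Means of 10 probes before and after a gap had r = 0.392 over 506 gaps, compared with 0.415 over 219561 intervals, which are overlapping windows and not independent. Both means were above 0 for 37.4% of the gaps and for 25.3% of all intervals, and both were below 0 for 28.3% and 41.7%. Stretches with many probes count more among all intervals, and the part of this in the contrast was not tested. By fragments of 1 Mb, 36.6% with and 32.5% without a flanking probe were above 0 on both arrays. Below 0 on both arrays were 46.9% and 50.2%. The median size of the step across was 0.27 for the gaps and 0.27 for all intervals.

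Steps in level were called at a few of the gaps. In limma's test of the 10 probes after minus the 10 probes before, 6 of 506 gaps (1.19%) stepped up with an adjusted p under 0.05, against 1.05% of all intervals, and 5 (0.988%) stepped down, against 0.992%. Each of these 11 steps had its direction on both arrays. At an unadjusted p under 0.05, 35 gaps (6.92%) stepped up, against 7.96% of all intervals, and 41 (8.10%) stepped down, against 8.03%. The largest was a step down on chromosome 13 from 64773211 to 65276246. The 10 probes before this gap averaged 0.69 on replicate 1 and 0.72 on replicate 2, and the 10 probes after it -0.16 and -0.89, a step of -1.23 ± 0.29 (SE, limma adjusted p = 0.0068). The largest step up lies on chromosome 1 from 121512990 to 122044353. There the means changed from -0.86 and -0.66 before the gap to 0.35 and 0.49 after it, a step of 1.18 ± 0.29 (SE, limma adjusted p = 0.0098). Both of these gaps are over 500 kb long.

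Neighbouring gaps shared 2 of the called steps. On chromosome 1 the gaps from 30640422 to 30825692 and from 30825692 to 30979253 have a single probe between them, and their steps of 1.06 and 1.09 rest on nearly the same probes. Further steps up were found on chromosome 1 from 47645847 to 47786353 (0.96), on chromosome 7 from 60982680 to 61129995 (0.97) and on chromosome 15 from 9094945 to 9205512 (0.96). Further steps down were found on chromosome 5 from 164727575 to 164827842 (-1.11), on chromosome 2 from 114486654 to 114681563 (-1.07) and from 189134914 to 189245979 (-0.96), and on chromosome 3 from 166893606 to 167171051 (-0.97). Adjusted p values of the 11 steps in limma ranged from 0.0068 to 0.046. With 20 probes on each side, 14 of 504 gaps (2.78%) stepped up, against 1.67% of all intervals, and 9 (1.79%) stepped down, against 1.65%.

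**Figure D5:**
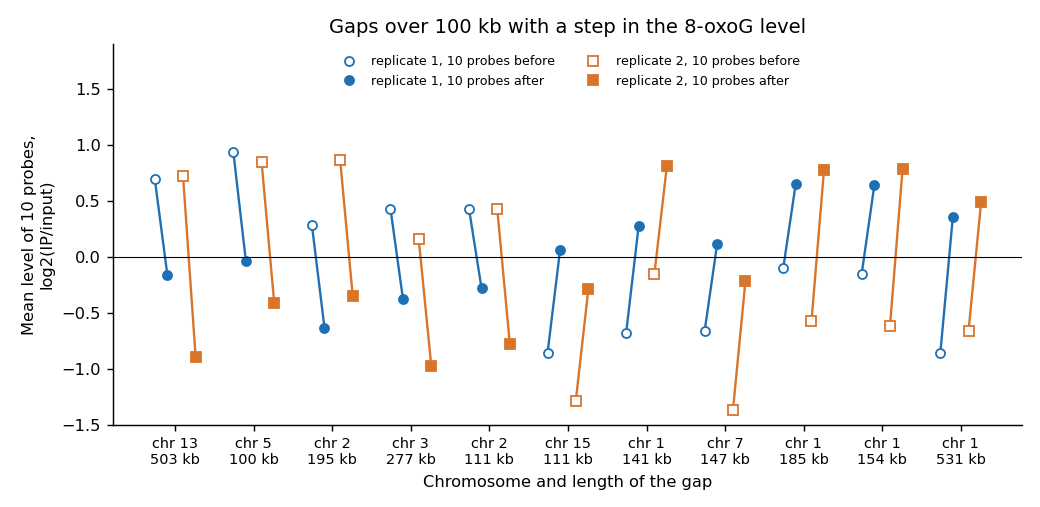
Mean 8-oxoG level, log2(IP/input), of the 10 probes before (open) and the 10 probes after (filled) each of the 11 gaps with a called step, for replicate 1 (circles) and replicate 2 (squares), ordered from the largest step down to the largest step up. Before and after values differ in the same direction on both arrays at each gap, from -1.23 on chromosome 13 to 1.18 on chromosome 1.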

How the data were processed

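Arrays of 2 rats were read by the authors with Agilent Feature Extraction 10.5.1.1, and the deposited processed intensity of each channel is background-subtracted, spatially detrended and dye-normalized within the array. The authors also deposited a log10 ratio with substituted values for dim spots, and a table of log2 values that equals log2 of processed red over green and is not centred, with medians of 0.01 and 0.06. Levels were computed as log2(IP/input) of processed intensities and centred on the median of each array. Control spots and 305 outlier-flagged spots were left out and repeated spots averaged. Coordinates are those of rn4 in the files. The rule, which speaks of 2 probes on either side, was read as 1 probe on each side of a gap, and the other reading is an alternative.

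Differences were tested by exact sign-flip permutation over the arrays. Probes, fragments, gaps and steps were fitted over all autosomal features with limma 3.58.1 in R 4.3.3 (intercept, eBayes, two-sided, Benjamini-Hochberg), with 1 residual degree of freedom, and the fits were tested on simulated data. Python 3.11.15, numpy 2.4.6, pandas 2.3.3, scipy 1.17.1 and matplotlib 3.10.9 were used. Normexp used median signals with an offset of 50. The members and lists were chosen with earlier results of these data known. Named gaps are the 10 longest, the 3 highest and 3 lowest with 1 sign on both arrays, gaps with both flanks called (none) and the 3 chromosomes with most gaps. The gaps with a called step, the brightest probes and further chromosomes were singled out after their values were seen. Gene names, gene families and probe sequences were not analysed here, and no annotation of rn4 was used.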

Additional observations from a re-analysis of the deposited data

How the results depend on the processing

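The mean level difference of the flanking probes (0.07) was above 0 under all alternatives that were run. It moved by more than the spread between the arrays with normexp background correction (0.025), before dye normalization (0.046), with the trend on input brightness removed (0.088), with gaps over 50 kb (0.11) or over 200 kb (0.10), with the grid shifted by 500 kb (0.059), with the median over the other probes (0.028) and with chromosome X included (0.056). The value with normexp is on the narrower scale of levels described above. Chosen after seeing the data, the comparison of only probes of 60 bases gave 0.055. In the other alternatives it stayed within that spread, and single arrays gave 0.06 to 0.08. The mean level (0.08) turned to -0.016 with normexp, and single arrays gave 0.04 to 0.12. The input difference (0.16) was 0.10 with normexp, 0.10 without the probes between 2 gaps and -0.019 with only probes of 60 bases, both of the latter chosen after seeing the data, and single arrays gave 0.15 to 0.17.

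Calls of single flanking probes were 0 in every setting run. Fragments called above 0 numbered 5 with normexp (0.973%, all fragments 0.195%) against 116. Fragments called below 0 numbered 16 with normexp (3.11%, all 2.49%) and 64 with the trend on input brightness removed (12.5%, all 14.9%) against 105. With only probes well above background, 1 of 334 gaps was called above by the mean of its 2 flanks (0.299%, all intervals 0.566%) and 4 below (1.20%, all 0.727%), against 0 and 0. Called steps numbered 14 up (2.78%, all 1.67%) and 9 down (1.79%, all 1.65%) with 20 probes per side, against 6 and 5. The causes were not tested.

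Calls were not run without a replicate, since 1 array leaves no residual degrees of freedom. No paired analysis was possible because the samples form 1 group. In limma the spread was pooled completely for fragments and steps in the main processing, so that features with few probes had the same error as others. For fragments it was not pooled completely with the trend on input brightness removed or before dye normalization. IP and input were well above background on the 2 arrays for 80.4% of the flanking probes, and the levels of the rest are less certain.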

Other observations

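Stretches with many gaps were looked at apart from the naming rule, by their number of gaps. The windows of 5 Mb with 7 or more gaps were chromosome 1 from 30 to 35 Mb (11 gaps), chromosome 1 from 50 to 55 Mb (8 gaps) and chromosome 16 from 20 to 25 Mb (7 gaps). On chromosome 1 from 30 to 35 Mb the 17 flanking probes had mean levels of 0.40 on replicate 1 and 0.25 on replicate 2, and the 190 other probes of the window -0.17 and -0.31. On chromosome 16 the 11 flanking probes had 0.65 and 0.43 and the 299 other probes -0.02 and -0.19. On chromosome 1 from 50 to 55 Mb the 15 flanking probes had 0.02 and -0.05 and the 126 other probes -0.34 and -0.15. Against the other probes of their own 1 Mb fragments, the flanking probes differed by 0.02 and -0.09 on chromosome 1 from 30 to 35 Mb and by -0.01 and -0.11 on chromosome 1 from 50 to 55 Mb. Within these fragments of chromosome 1 the flanking probes were thus not above the others on both arrays. On chromosome 16 they differed from their fragments by 0.55 and 0.72. On chromosome 1 from 50 to 55 Mb the flanking probes had a median input intensity of 2440 on replicate 1 and 1998 on replicate 2, compared with 111 and 98.6 for the other probes, and 53.3% of them were shorter than 60 bases. The part of brightness and probe length in these differences was not tested.

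With normexp background correction limma called 5 autosomal fragments of 1 Mb above 0, which is 0.195% of all, and all 5 hold flanking probes. The spread was pooled completely in this fit as well, so that fragments with few probes had the same error as others. Fragments with flanking probes held fewer probes, with a median of 63 against 85, and the part of this in the calls was not tested. The fragment on chromosome 1 from 31000001 to 32000000 has 9 probes, of which 6 flank gaps, and its mean level in the main processing was 0.63 on replicate 1 and 0.84 on replicate 2. The first 1000000 bases of chromosome 2 hold 8 probes, of which 5 flank gaps, at 0.93 and 0.97. Chromosome 1 from 50000001 to 51000000 has 5 probes, of which 4 flank gaps, at 0.39 and 0.20. The other fragments lie on chromosome 1 from 75000001 to 76000000 (32 probes, 0.74 and 0.48) and on chromosome 6 from 139000001 to 140000000 (49 probes, 0.56 and 0.41).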
